A study of Homo sapiens with 9 samples.

Results

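The genes described here are 6 components of chemoattractant axes, CXCR4, CXCL12, ACKR3, CX3CL1, CMKLR1 and RARRES2, taken by name from the 63856 genes of the deposited tables. All 6 had counts, and 5 of them passed the filter on low counts together with 18452 genes in all, whereas RARRES2 did not and is given by its counts. CXCR4, CX3CL1 and CMKLR1 are also among the genes that the study selected on these same samples, so the number of members that passed the tests below is not independent evidence. RNA was sequenced from TCam-2, a human testicular seminoma cell line, in 3 groups of 3 biological replicates. The wild type (WT) cells received no modification. The negative control (NC) cells were transfected with the px335_G2P vector carrying guide RNAs nonspecific for the human genome. The ESX1-activated cells were transfected with 3 px335_G2P vectors carrying guides for ESX1, an X-linked homeobox gene, together with PB-TRE-dCas9-VPR, a doxycycline-inducible CRISPR activation (CRISPRa) plasmid. Transfected cells were kept in puromycin and doxycycline for 72 h and then collected, while no time was given for WT. The sources used here do not state whether NC also received the dCas9-VPR plasmid. The transfected cultures were analysed in bulk and only some of their cells were GFP-positive, and all samples come from 1 cell line. WT differed from both other groups in transfection, vectors and drugs at once, so the effects of these cannot be told apart in a comparison with WT.

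Chemokines are small secreted or membrane-anchored proteins that direct cell migration through G-protein-coupled receptors. CXCR4 is the signalling receptor for CXCL12, and this pair guides primordial germ cells to the developing gonad, while the atypical receptor ACKR3 takes up CXCL12 without classical G-protein signalling. CX3CL1 (fractalkine) is a membrane-anchored chemokine that proteases can release from the surface and that binds CX3CR1. CMKLR1 is the receptor for chemerin, a chemoattractant and adipokine whose inactive precursor is encoded by RARRES2.

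The libraries held between 5212804 and 10644408 read pairs assigned to genes, with the smallest in ESX1-activated replicate 3. Mitochondrially encoded genes took 17.0% to 18.3% of the counts in WT, 14.5% to 15.3% in NC and 19.2% to 19.9% in the ESX1-activated cells. ESX1 itself, the targeted gene, had 33, 28 and 30 counts in WT, 35, 27 and 34 in NC and 562, 554 and 170 in the ESX1-activated replicates. By edgeR's quasi-likelihood test, its log2 fold change in the ESX1-activated cells was 3.75 compared with WT (adjusted p = 1.87e-08) and 3.85 compared with NC (adjusted p = 4.48e-08). All 12 seminoma and germ cell markers checked had counts, among them POU5F1, SOX17 and TFAP2C, which fits the labelled cell type. Of the 11 that could be tested, 8 were at least 2-fold lower in the ESX1-activated cells than in WT at an adjusted p below 0.05. Of all tested genes, 4.77% were lower than in WT by this rule. NANOG passed the same rule against NC, where 0.699% of all tested genes were lower. The study also selected NANOG on these same samples, so its call is not an independent find. POU5F1, TFAP2C, PRDM1, PDPN, LIN28A and ALPL were also lower than in NC at an adjusted p below 0.05, by less than 2-fold (log2 fold changes from -0.77 to -0.51). The summed level of 10 leukocyte markers was between 0.655 and 3.87 normalized CPM (counts per 1000000 counts of the library after scaling) in every library, with CD3E at 0 and 4 counts of PTPRC in all. The endothelial genes PECAM1 and CDH5 had 11 and 42 counts in all libraries, although the 6-gene endothelial list reached 38.0 to 56.1 CPM through VWF and TEK.

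A gene was called different when its Benjamini-Hochberg adjusted p over all tested genes was below 0.05 and its change was at least 2-fold. Against WT, 3 of the 5 tested members were called in the ESX1-activated cells (CXCR4 lower, CX3CL1 and CMKLR1 higher), where 11.5% of all tested genes were called (6.78% higher and 4.77% lower). Against NC, 4 of the 5 were called (the same 3 genes in the same directions and CXCL12 higher), where 1.78% of all tested genes were called (1.08% higher and 0.699% lower). CXCR4, CX3CL1 and CMKLR1 were the members called in 1 direction against both controls, which was the case for 1.53% of all tested genes (0.948% higher and 0.585% lower). CMKLR1 was tested only because its counts in the ESX1-activated libraries passed the filter on low counts. Between the controls, 1 of the 5, CXCL12, was called and was lower in NC, where 5.27% of the tested genes were called (3.12% higher and 2.15% lower). Under an adjusted p below 0.05 with no minimum fold, 3, 4 and 2 members passed in these comparisons, where 28.8%, 4.25% and 17.1% of all tested genes did. The split of the 2-fold calls depended on the scaling, with 576 higher and 397 lower between the controls here against 710 and 311 with upper-quartile factors. In the comparison of the ESX1-activated cells with WT it moved from 1251 higher and 880 lower to 1476 and 697. The comparisons with WT and NC use the same ESX1-activated samples, so they are not independent of each other. In these bulk samples, fewer cells of a type and less RNA per cell cannot be told apart.

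**Figure D1:**
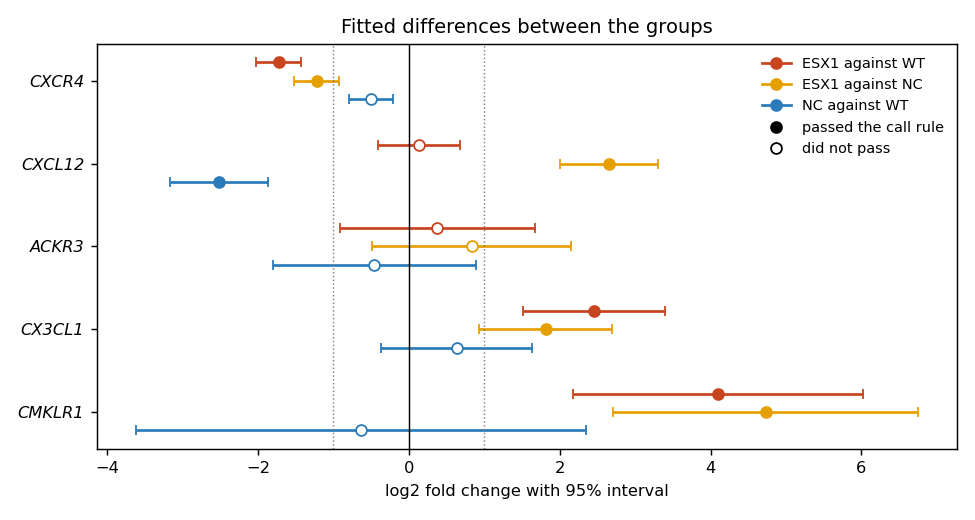
Fitted log2 fold changes (x axis) of the 5 tested genes (y axis) with 95% intervals for each pair of groups; filled points passed the call rule, open points did not, and dotted lines mark a 2-fold change. CXCR4 lies to the left in all 3 comparisons, CX3CL1 and CMKLR1 lie to the right of 1 in both comparisons of the ESX1-activated cells, and for CXCL12 the comparison with WT is near 0 while both comparisons with NC lie beyond 2-fold.

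CXCR4 (ENSG00000121966.6), annotated on GRCh38 at chromosome 2, positions 136114349 to 136118165, minus strand, had by far the highest level of the 6 genes. Its normalized CPM were 185.3, 260.5 and 248.1 in the WT replicates, 162.6, 159.0 and 166.8 in NC and 67.02, 82.19 and 60.03 in the ESX1-activated cells. The 3 groups did not overlap, and WT replicate 1 lay closest to NC. The mean was 231 ± 40.3 in WT, 163 ± 3.93 in NC and 69.8 ± 11.3 in the ESX1-activated cells (SD, n = 3). CXCR4 therefore fell 3.31-fold against WT and 2.33-fold against NC, and the 95% interval of the log2 fold change ran from -2.03 to -1.42 for WT (adjusted p = 2.21e-07) and from -1.52 to -0.92 for NC (adjusted p = 6.61e-05). The NC level was 0.51 lower than WT on the log2 scale (95% interval -0.80 to -0.22, adjusted p = 0.0176), short of a 2-fold change. The summed level of the 12 seminoma markers moved in the same order. It was 3988 to 4985 CPM in WT, 3077 to 3306 in NC and 1764 to 2137 in the ESX1-activated cells. Of the 11 tested markers, 8 were called lower in the ESX1-activated cells than in WT and 1 lower than in NC. Of all tested genes, 4.77% and 0.699% were called lower in these comparisons. Between the controls, 2 of the 11, KIT and LIN28A, were called lower in NC, as were 2.15% of all tested genes. SOX17 did not follow the sum, with log2 fold changes of 0.11 against WT and -0.03 against NC. ALPL differed little between the controls (log2 fold change -0.05 for NC against WT). The part of these markers in the CXCR4 values was not tested. With mitochondrially encoded genes removed, all calls of the members were kept. In the fits that each left out 1 sample, the change of CXCR4 against WT stayed between -1.87 and -1.60 and that against NC between -1.36 and -1.11. The difference between the controls was less stable, since its adjusted p was above 0.05 in 5 of these 9 fits, with a highest value of 0.102 without WT replicate 2.

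**Figure D2:**
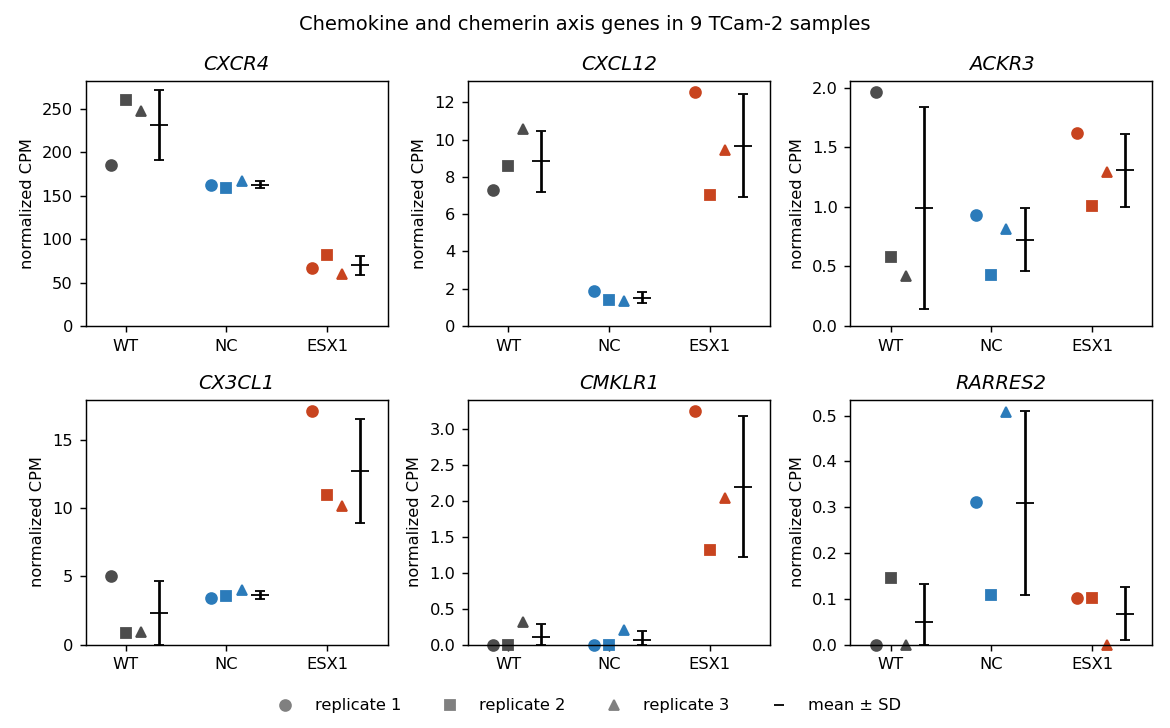
Normalized CPM (y axis, linear, starting at 0, a different scale in each panel) of the 6 genes in WT, NC and ESX1-activated (ESX1) samples; each symbol is 1 replicate and the black mark is the mean with its SD, cut off at 0 where the SD exceeds the mean. The 3 groups of CXCR4 are apart, CXCL12 is low in NC only, and CX3CL1 and CMKLR1 are highest in the 3 ESX1-activated replicates.

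The sequences just upstream of RefSeq start sites (GRCh38.p14) are shown for the 3 called members that have an entry, since these genes moved in different patterns across the groups. Entries were found for 4 of the 6 genes. Only bases outside the annotated exons of the count table are printed, 5′ to 3′ on the gene's strand, and capitals mark the TATA box core (TATAAA, or TTTATA on the other strand) and the GC box (GGGCGG, or CCGCCC on the other strand), 2 motifs that do not overlap each other here although copies of 1 motif share bases. For CXCR4 the first of 3 listed start sites is shown.
CXCR4, chr2:136118166-136118399, minus strand: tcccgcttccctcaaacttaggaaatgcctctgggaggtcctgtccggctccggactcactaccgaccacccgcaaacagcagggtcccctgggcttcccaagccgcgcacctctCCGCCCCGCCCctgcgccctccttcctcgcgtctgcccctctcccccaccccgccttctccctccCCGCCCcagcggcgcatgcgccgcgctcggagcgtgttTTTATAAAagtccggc
CXCL12, chr10:44385098-44385347, minus strand: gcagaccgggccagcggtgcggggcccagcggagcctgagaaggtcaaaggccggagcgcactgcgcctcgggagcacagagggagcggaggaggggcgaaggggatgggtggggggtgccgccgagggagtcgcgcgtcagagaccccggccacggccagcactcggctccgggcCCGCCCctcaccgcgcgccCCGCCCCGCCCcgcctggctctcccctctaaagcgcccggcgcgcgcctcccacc
CMKLR1, chr12:108320663-108320892, minus strand: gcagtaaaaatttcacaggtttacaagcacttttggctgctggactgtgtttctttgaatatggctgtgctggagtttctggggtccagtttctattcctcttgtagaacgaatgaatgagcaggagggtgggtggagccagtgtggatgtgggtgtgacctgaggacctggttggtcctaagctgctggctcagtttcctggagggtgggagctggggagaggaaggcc
The CXCR4 window held TATAAA beginning 30 bases upstream of the start site, overlapped by TTTATA, and the other printed windows held neither. The windows of the other CXCR4 start sites, not printed, also held neither, with 0 and 1 GC boxes and 55.6% and 51.6% G or C. Over 35116 promoter windows of 250 bases, 10.7% held TATAAA or TTTATA. The homeodomain core TAATTA, which reads the same on both strands and is found in 4.35% of windows, was in none of the printed windows. The GC box GGGCGG or CCGCCC, present in 42.6% of windows, occurred 3 times each in the printed windows of CXCR4 and CXCL12 and not in that of CMKLR1. The 250 upstream bases were 68.0% G or C for the CXCR4 start site shown, 78.0% for CXCL12 and 51.6% for CMKLR1, against a median of 58.0% over all windows. The RefSeq start sites of CXCL12 and CMKLR1 lie inside the span of the gene in the count table's annotation, which also holds transcripts starting further upstream. A match is a description of letters only, and binding of any factor was not measured.

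CXCL12 (ENSG00000107562.16, minus strand of chromosome 10 from 44370165 to 44386493), the ligand of CXCR4, followed another pattern. Its counts were 67, 59 and 101 in WT, 18, 13 and 13 in NC and 124, 70 and 51 in the ESX1-activated cells, or 8.82 ± 1.63, 1.53 ± 0.295 and 9.68 ± 2.77 normalized CPM (SD, n = 3). The NC samples were low, while the WT and ESX1-activated samples overlapped. Against NC, CXCL12 rose 6.29-fold in the ESX1-activated cells (log2 fold change 2.65, standard error 0.307, adjusted p = 6.5e-05). With limma on the deposited log2 values the difference was 1.498 on that scale. Against WT, the log2 fold change was 0.13 (95% interval -0.41 to 0.68, adjusted p = 0.742), and this interval excludes a 2-fold change in either direction. NC was 5.74-fold lower than WT (log2 fold change -2.52, standard error 0.307, adjusted p = 4.65e-05). The 8 markers checked for fibroblasts and smooth muscle, cells that commonly express CXCL12, summed to 187 to 339 CPM in WT, 141 to 175 in NC and 117 to 235 in the ESX1-activated cells, and the 8 Sertoli and Leydig markers to 24.9 to 30.8, 27.6 to 33.9 and 17.8 to 41.6. The first sum is mostly COL1A2 (244, 131 and 131 CPM on average), whereas COL1A1 of the same list averaged 3.65, 17.0 and 17.7 CPM and was called higher than in WT in both NC and the ESX1-activated cells (log2 fold changes 2.19 and 2.27, adjusted p = 0.000708 and 0.000236). The median log2 fold change of the 5 tested markers of that list was 0.98 for NC against WT, opposite in direction to its sum and to CXCL12. Of the 5 tested Sertoli and Leydig markers, only CYP11A1 was called, higher than in WT in both NC and the ESX1-activated cells. Of all tested genes, 3.12% and 6.78% were called higher in these comparisons. The part of these cell types in the CXCL12 values was not tested.

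ACKR3 (ENSG00000144476.5, plus strand of chromosome 2 from 236567787 to 236582358), the atypical CXCL12 receptor, was near the limit of what these libraries could measure. It had 18, 4 and 4 counts in WT, 9, 4 and 8 in NC and 16, 10 and 7 in the ESX1-activated cells. WT replicate 1 stood apart from the other WT samples, and the ESX1-activated values (1.01 to 1.62 CPM) lay above all NC values (0.429 to 0.933 CPM). The log2 fold change of 0.83 against NC (95% interval -0.49 to 2.15, adjusted p = 0.578) and that of 0.38 against WT (-0.91 to 1.67, adjusted p = 0.686) did not pass the test. Neither interval excludes a 2-fold difference, and none was detectable at this depth.

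CX3CL1 (ENSG00000006210.6, plus strand of chromosome 16 from 57372458 to 57385048), the membrane-anchored chemokine, rose in the ESX1-activated cells. Its counts were 46, 6 and 9 in WT, 33, 33 and 39 in NC and 169, 109 and 55 in the ESX1-activated cells, where the last and lowest count came from the smallest library. On the CPM scale the ESX1-activated replicates (10.2 to 17.1) were above all 6 control samples (0.875 to 5.02), and WT replicate 1 was the only WT sample above the NC range. The means were 2.28 ± 2.38 CPM in WT, 3.64 ± 0.289 in NC and 12.8 ± 3.82 in the ESX1-activated cells (SD, n = 3). CX3CL1 was 5.47-fold higher than in WT (log2 fold change 2.45, 95% interval 1.51 to 3.39, adjusted p = 0.000568) and 3.52-fold higher than in NC (log2 fold change 1.81, 0.93 to 2.70, adjusted p = 0.0179). Without WT replicate 1 the log2 fold change against WT was 3.79 (adjusted p = 1.51e-06). The same sample set the comparison of the controls, where NC was 0.64 above WT on the log2 scale (adjusted p = 0.385) with all samples and 1.98 above it (adjusted p = 0.00255) without WT replicate 1. The call against NC was lost in 4 of the 9 fits that left out 1 sample, with adjusted p of 0.0809, 0.0875 and 0.0753 without NC replicates 1, 2 and 3 and 0.075 without ESX1-activated replicate 1. DESeq2 gave a log2 fold change of 1.82 against NC with an adjusted p of 0.0826, and limma on the deposited values gave 1.20 with an adjusted p of 0.00914. CX3CR1, the receptor of CX3CL1, had no count in any WT or NC library and 0, 2 and 3 counts in the ESX1-activated cells.

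CMKLR1 (ENSG00000174600.13, minus strand of chromosome 12 from 108288044 to 108339341), the chemerin receptor, was almost without reads in the controls. It had 0, 0 and 3 counts in WT, 0, 0 and 2 in NC and 32, 13 and 11 in the ESX1-activated cells. It passed the filter on low counts only through these ESX1-activated libraries. Its calls against the controls are therefore not independent of that filter. All ESX1-activated libraries were above the control libraries, each of which was at or under 3 counts. The summed counts gave a ratio of 19.0 against WT (exact 95% interval 6.16 to 94.6) and of 32.0 against NC (8.45 to 270.6), intervals that cover counting error only. The fitted log2 fold changes were 4.10 for WT (adjusted p = 0.00277) and 4.73 for NC (adjusted p = 0.00746), values that depend on how the fit treats counts of 0, and limma on the deposited log2 values gave 1.23 and 1.27. The call against NC was lost without NC replicate 1 (adjusted p = 0.0585) or NC replicate 2 (adjusted p = 0.0598). Without NC replicate 3, the only NC library with a read, the fitted value moved to 7.28, and without WT replicate 3 that against WT also moved to 7.28.

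RARRES2 (ENSG00000106538.9, minus strand of chromosome 7 from 150338317 to 150341674), which encodes the chemerin precursor, had 0, 1 and 0 counts in WT, 3, 1 and 5 in NC and 1, 1 and 0 in the ESX1-activated cells. WT and ESX1-activated libraries were all under the floor of 3 counts per library, which corresponds to 0.302 to 0.554 CPM, so no fold is given between them. The summed counts were 9 in NC, 1 in WT and 2 in the ESX1-activated cells. After scaling for library size, the ratio of NC to WT was 7.997 (exact 95% interval 1.11 to 350.5), which rests on 1 WT count, and the ratio of the ESX1-activated cells to NC was 0.254 (0.0267 to 1.23), intervals for counting error only. The receptor therefore gained reads in the ESX1-activated cells while the transcript of its ligand was under the floor in the same libraries. Of the other proteins that bind chemerin, GPR1 was not called in any comparison (log2 fold change 0.60 against WT and -0.31 against NC, adjusted p = 0.291 and 0.771), and CCRL2 had no count in any library.

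Levels were compared between genes per kilobase of exon. In WT the order was CXCR4 at 104.0 CPM per kb, CXCL12 at 1.45, ACKR3 at 0.438 and CX3CL1 at 0.381, with RARRES2 and CMKLR1 below 0.03. The ranges of ACKR3 and CX3CL1 overlapped, as did those of RARRES2 and CMKLR1. In NC the order was CXCR4 (73.2), CX3CL1 (0.609), ACKR3 (0.321), CXCL12 (0.251), RARRES2 (0.161) and CMKLR1 (0.0119), and the ranges overlapped from ACKR3 to CXCL12 and from CXCL12 to RARRES2. In the ESX1-activated cells CXCR4 (31.4) was followed by CX3CL1 (2.13) and CXCL12 (1.59), which overlapped, then by ACKR3 (0.579) and CMKLR1 (0.386), which overlapped too, and by RARRES2 (0.0351). CXCR4 was therefore 71.6 times its ligand per kilobase in WT, and it remained the highest of the 6 genes in each group. Among 16753 protein-coding genes with counts, its level per kilobase stood at percentile 98.9 in WT, 98.8 in NC and 95.6 in the ESX1-activated cells. CX3CL1 stood at percentile 29.9, 32.5 and 46.9, and CMKLR1 at 10.2, 6.38 and 26.7.

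The other genes of these axes were read from 5 lists. None of their 55 tested genes was called in 1 direction against both controls by edgeR's quasi-likelihood test, where 1.53% of all tested genes were. DESeq2 and limma called 1 each (PLAU and PTAFR). By edgeR, 12 had an unadjusted p below 0.05 in 1 direction against both. The share of all tested genes at an unadjusted p was not determined, so such counts here and below are not read as a result about the lists. For the calls in each list, 11.5% of all tested genes were called against WT, 1.78% against NC and 5.27% between the controls. Of 41 other chemokine ligands, 23 had counts and 6 were tested. Against WT, CXCL16, a membrane-anchored chemokine like CX3CL1, was higher in the ESX1-activated cells (log2 fold change 1.499, adjusted p = 0.0211) and CCL2, a monocyte attractant, was lower (-2.51, adjusted p = 0.000149). Against NC neither was called (0.56 and -0.37, adjusted p = 0.585 and 0.753), nor was any other of the 6 by edgeR, DESeq2 or limma, with 1 at an unadjusted p below 0.05, and CCL2 was also lower in NC than in WT (-2.14, adjusted p = 0.000889). CCL2 had 40, 60 and 70 counts in WT, 16, 12 and 16 in NC and 8, 17 and 5 in the ESX1-activated cells, so that both transfected groups lay below every WT sample. The call of CXCL16 was lost without WT replicate 2, WT replicate 3 or ESX1-activated replicate 1. The most abundant ligand per kilobase was CXCL14, with 148 ± 17.9 CPM in WT, 133 ± 8.81 in NC and 206 ± 26.5 in the ESX1-activated cells (SD, n = 3). Its log2 differences of 0.47 against WT and 0.63 against NC had adjusted p of 0.00858 and 0.00646 but were under 2-fold. The median log2 fold change of the 6 tested ligands was 0.48 against WT and 0.23 against NC, where the median of all tested genes was 0.0066 and 0.0004.

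Among 20 other chemokine receptors, 15 had counts, 3 were tested and none was called in any comparison by edgeR, DESeq2 or limma, with 1 at an unadjusted p below 0.05 against WT and 0 in the other comparisons. CXCR6, the receptor of CXCL16 and the most abundant of them, had 6.53 ± 1.23 CPM in WT, 5.21 ± 0.265 in NC and 4.21 ± 0.701 in the ESX1-activated cells (SD, n = 3), with adjusted p of 0.0833 against WT and 0.636 against NC. Of 18 other chemoattractant receptors, 14 had counts and 9 were tested. By edgeR 1 was called, against WT, where 11.5% of all tested genes were called. PTAFR, the receptor for platelet-activating factor, had 0, 0 and 7 counts in WT, 13, 0 and 2 in NC and 42, 18 and 17 in the ESX1-activated cells. Like CMKLR1, it would not have passed the filter on low counts without the ESX1-activated libraries. It was called against WT (log2 fold change 3.46, adjusted p = 0.0122) and not against NC (2.53, adjusted p = 0.121), and the value against WT was between 2.85 and 7.75 when 1 sample was left out. The tools differed for PTAFR, since DESeq2 gave an adjusted p of 0.118 against WT and limma on the deposited values called it against both controls (log2 differences 1.37 and 1.12, adjusted p = 0.00142 and 0.0287). S1PR3, a sphingosine-1-phosphate receptor and the most abundant of this list, averaged 26.2, 21.5 and 17.0 CPM in WT, NC and the ESX1-activated cells. Against WT it was lower by less than 2-fold (log2 fold change -0.61, adjusted p = 0.0121 by edgeR). Against NC the log2 fold change was -0.32 (adjusted p = 0.387). The counts of XCL1 and XCL2, which are near-identical copies, and of LTB4R and LTB4R2, which overlap, are uncertain.

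**Figure D3:**
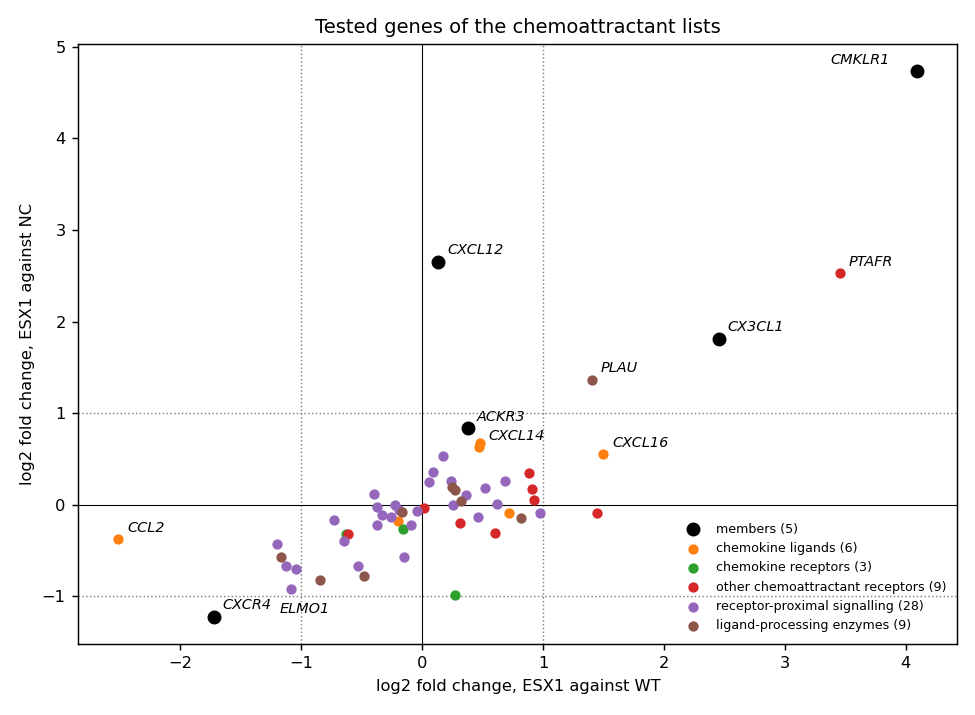
Log2 fold changes of the ESX1-activated cells against WT (x axis) and against NC (y axis) for the tested genes of 6 lists, 1 point per gene, with the number tested in brackets and dotted lines at a 2-fold change. Both axes use the same ESX1-activated samples, and CMKLR1 and CX3CL1 lie at the upper right while CXCR4 lies at the lower left.

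Among 33 genes of signalling close to the receptors (G proteins, arrestins, kinases, their regulators and further CXCL12 or CXCR4 partners), 28 were tested. Against WT, 3 of the 28 were called in the ESX1-activated cells, all lower, where 11.5% of all tested genes were called (4.77% lower). They were ELMO1 (log2 fold change -1.09, adjusted p = 8.06e-05), DOCK2 (-1.04, adjusted p = 0.0121) and HMGB1 (-1.20, adjusted p = 2.25e-05). ELMO1 and DOCK2 form a complex that acts in cell migration. HMGB1 is a chromatin protein that can bind CXCL12 outside the cell, and its many processed gene copies make its counts uncertain. None of the 28 was called against NC by edgeR, DESeq2 or limma, 7 had an unadjusted p below 0.05, and ELMO1 had 53.4 ± 5.6 CPM in NC and 27.9 ± 6.98 in the ESX1-activated cells (SD, n = 3) and a log2 difference of -0.92 (adjusted p = 0.00252), under 2-fold. The calls of ELMO1 and DOCK2 against WT were lost with upper-quartile factors, where both changes were under 2-fold, and without ESX1-activated replicate 3. That of DOCK2 was also lost without WT replicate 3 or ESX1-activated replicate 1. Of 18 enzymes that cut or shed these ligands, 9 were tested and 2 were called against WT, where 11.5% of all tested genes were called. PLAU, a serine protease, was higher against WT (1.40, adjusted p = 0.0232) and lay 1.37 above NC on the log2 scale with an adjusted p of 0.0912, while DESeq2 called it there (1.36, adjusted p = 0.0485). BACE1, a membrane protease, was lower against WT (-1.17, adjusted p = 4.3e-06) and, by less than 2-fold, against NC (-0.57, adjusted p = 0.0159). By edgeR, MMP2 was lower by less than 2-fold against both, at -0.48 for WT and -0.78 for NC (adjusted p = 0.0282 and 0.00662). ADAM17, a sheddase of CX3CL1 and the most abundant enzyme of the list, was not called. The call of PLAU against WT was lost without WT replicate 2, WT replicate 3, ESX1-activated replicate 1 or ESX1-activated replicate 2. Genes of these lists other than the most abundant of each were named after their values were seen.

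The genes with profiles nearest to CXCR4 were found among 12592 protein-coding genes by the root mean square difference of log2 CPM, each centred on its own mean, over the 9 samples. They were HTR7 (0.108), a serotonin receptor, ADAMTS9 (0.121), a secreted metalloprotease, GMPR (0.135), a purine nucleotide enzyme, SMIM10L2B (0.149), whose near-identical copy makes its counts uncertain, and GCNT1 (0.152), a glycosyltransferase, beside a spread of CXCR4 itself of 0.744. HTR7 averaged 62.1, 43.4 and 19.6 CPM in WT, NC and the ESX1-activated cells, and ADAMTS9 averaged 340.2, 249.6 and 103.9. For CX3CL1, whose own spread was 1.3, the nearest were SOX5 (0.337), a transcription factor, VLDLR (0.355), a lipoprotein receptor, NID1 (0.376), a basement membrane protein, SP6 (0.388), a transcription factor, and TMTC2 (0.432), an enzyme of the endoplasmic reticulum. These profiles rest on 9 samples in 3 groups, and the 5 genes nearest to CX3CL1 also had their highest WT value in replicate 1. ADAMTS9, GMPR and SOX5 are also among the genes that the study selected on these same samples, so their likeness is not an independent find.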

How the data were processed

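RNA-seq counts came from WT, NC and ESX1-activated TCam-2 cells (n = 3 biological replicates each, grouped by sample titles). The deposited counts are whole read pairs per gene: the authors aligned stranded total RNA reads to GRCh38 with HISAT2 2.0.5 and counted exons with featureCounts without strand. The file header names featureCounts 1.5.2 and GENCODE 26, the submitters' notes featureCounts 1.6.5, and the methods another GENCODE release. The authors also deposited log2 values normalized with DESeq2, whose transformation is not stated. They rank genes exactly as the counts do, so both tables were joined by row to pair symbols with identifiers. The 7 genes described in full share no exon bases with another annotated gene.

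From the counts, genes were filtered with filterByExpr and fitted with edgeR 4.0.16 (R 4.3.3, TMM factors, quasi-likelihood F test, all 9 samples, group means), with Benjamini-Hochberg adjustment over 18452 genes. A call required adjusted p below 0.05 and at least 2-fold. Standard errors and 95% intervals were derived from the F statistic. Normalized CPM are counts per 1000000 of the TMM-scaled library size. Count ratios carry exact binomial intervals. Alternatives used DESeq2 1.42.0, limma 3.58.1 on the deposited log2 values, other scalings, filters, thresholds, thinning to the smallest library, a replicate block, and fits without each sample. The scripts were tested on simulated counts with known changes. The members and lists were chosen with earlier results of these data known. Named are the 6 members, ESX1, listed genes called against both controls, the most abundant gene of each list, and the 5 nearest profiles of CXCR4 and CX3CL1; genes in counts of 5 or fewer were named afterwards. The most abundant gene of the signalling list is not reported here. With few replicates, p-values reflect only the spread between these samples.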

Additional observations from a re-analysis of the deposited data

How the results depend on the processing

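Over 324 refitted values of the 5 tested members and ESX1, 311 kept their direction and their side of the threshold. CXCR4 (called against WT and NC), CXCL12 (called against NC) and ESX1 kept their calls in every alternative fit in which they were tested. Those that did not are CX3CL1 against NC (1.82 on the log2 scale with DESeq2, adjusted p = 0.0826, and 1.53 to 1.96 with 1 sample left out) and CMKLR1 against NC (4.23 to 7.28 with 1 sample left out), while CX3CL1 between the controls ranged from 0.23 to 1.98 and passed without WT replicate 1. Limma on the deposited log2 values kept the members' calls with smaller log2 fold changes, at 1.27 for CMKLR1, 1.498 for CXCL12 and 1.20 for CX3CL1 against NC, 1.23 for CMKLR1 and 1.69 for CX3CL1 against WT, and -1.40 for CXCL12 between the controls. With 1 sample left out, 5 uncalled values changed sign: CXCL12 against WT (-0.12 without ESX1-activated replicate 1, range -0.12 to 0.32), ACKR3 against WT (-0.0123 without WT replicate 3, range -0.0123 to 1.38), and, between the controls, ACKR3 (0.55 without WT replicate 1, range -0.84 to 0.55), CMKLR1 (2.55 without WT replicate 3, range -3.17 to 2.55) and ESX1 (0.0037 without NC replicate 2, range -0.20 to 0.0037); the cause was not tested.

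For all genes called (2131 against WT, 328 against NC and 973 between the controls), the counts were 1192, 200 and 563 with at least 10 counts required in every sample, 937, 177 and 338 with limma on the deposited log2 values, 5306, 784 and 3158 with no minimum fold, and 3872, 608 and 2205 at 1.5-fold. Those against NC were 209 to 434 with 1 sample left out, the lowest without NC replicate 3. Requiring 10 counts in every sample left 1 member called against WT and 2 against NC, since CX3CL1 and CMKLR1 were then not tested. Members called against NC were 2 to 4 with 1 sample left out, and between the controls 1 to 2, and 2 with no minimum fold. Upper-quartile factors shifted the median of all genes by 0.102 against WT and kept the members' calls. Without length, 2 of 6 members in WT, 4 in NC and 4 in the ESX1-activated cells had the same rank.

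Pairing of the samples by replicate number was weak or absent, and it was not tested. Correlations of same-numbered deviations were -0.006 to 0.057 (ESX1-activated and WT), 0.016 to 0.193 (ESX1-activated and NC) and -0.030 to 0.022 (controls). For the ESX1-activated and NC samples, those of different numbers were -0.155 to 0.068. In these comparisons, 3, 4 and 1 of 6 samples correlated best with their own number. With the replicate block, 2109, 358 and 1003 genes were called, CX3CL1 was at 1.74 against NC (adjusted p = 0.00806), and no member's call changed. Depth limits ACKR3, CMKLR1 and RARRES2, with at most 32 counts per library.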
